A study of Bos taurus with 12 samples.

Results

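The genes described here are 8 genes of cytokinesis and the central spindle, PRC1, RACGAP1, ECT2, ANLN, CIT, CEP55, TPX2 and ASPM. They were taken by symbol from the 18436 genes of the deposited expression table, and their m6A peaks by the gene name given in the peak lists. They were chosen by their FPKM values, with the difference between myoblasts and myotubes in view, so that difference is given as a description without a test. The study compared proliferating bovine myoblasts (GM), kept in growth medium with fetal bovine serum and harvested at 80% confluence on day 0, with myotubes (DM), harvested at 100% confluence after 4 days in differentiation medium with horse serum. Both groups were primary cells of the breed Qinchuan, isolated from longissimus dorsi muscle of the newborn, and the study's methods speak of 1 animal. With 3 replicates a group, fragmented poly(A) RNA was sequenced as it was (input) and after immunoprecipitation (IP) with an antibody against N6-methyladenosine (m6A), which makes 12 libraries. Serum, confluence and days in culture change together between the groups and cannot be told apart.

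After the chromosomes separate, antiparallel microtubules are bundled between them into a central spindle, which marks where the cell cortex will contract. A contractile ring of actin and myosin then closes around that midzone and leaves a thin bridge, the midbody, which is finally cut. Myoblasts leave the cell cycle before they fuse into multinucleated myotubes, so in skeletal muscle these proteins are known from the dividing precursor and not from the fibre.

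Expression is given as FPKM (fragments scaled to exon length and to all mapped fragments) of the input libraries, a value per length that allows levels of different genes to be compared. Summed over all genes, FPKM came to 415740.2 to 434458.3 in the GM libraries and 386436.5 to 390826.9 in the DM libraries. Of 15 skeletal muscle markers 14 were tested, of which 6 were higher in DM, 4 lower and 4 not called, and their summed level was 1214.3 to 1306.0 FPKM in GM and 1760.4 to 1850.1 FPKM in DM. The myoblast genes PAX7 (mean of 1.08 FPKM in GM and 0.0624 FPKM in DM), MYF5 (11.8 and 2.25 FPKM) and MYOD1 (61.6 and 24.8 FPKM) were lower in DM, and so was the actin gene ACTA1 (110 and 70 FPKM). Embryonic myosin MYH3 was higher there, at 659 FPKM against 273 FPKM, and the GM cultures already held 197 FPKM of the differentiation factor MYOG against 243 FPKM in DM. All 10 fibroblast markers were detected, with a summed level of 16352.9 to 16468.8 FPKM in GM and 17105.9 to 18192.4 FPKM in DM that came mostly from collagen genes. Among them FAP was higher in DM (37.5 FPKM in GM and 105 FPKM in DM), POSTN was lower (273 and 132 FPKM) and 8 were not called. Adipocyte markers summed to 3.80 to 3.92 FPKM in GM and 3.82 to 4.28 FPKM in DM, with LEP and FABP4 at 0 in GM replicate 2. Of the 3 that were tested, PPARG was lower in DM (1.25 FPKM in GM and 0.482 FPKM in DM) and 2 were not called. Among those too low to be tested, CIDEC (0.127 and 0.796 FPKM) and FABP4 (0.106 and 0.578 FPKM) had higher means in DM. ADIPOQ (0.153 and 0.0109 FPKM) and LEP (0.0261 and 0.0126 FPKM) had lower ones. Of 7 endothelial and 7 immune markers, 4 each had values. KDR, EMCN, TIE1, PTPRC, CD3E and ITGAM had no entry under these symbols. The endothelial markers with values summed to at most 0.653 FPKM and the immune ones to at most 2.06 FPKM in any library. CDH5 and CSF1R were at 0 in DM replicates 2 and 3. The part of non-muscle cells in the results was not tested.

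The 8 genes lie on 8 different chromosomes, and each was lower in DM than in GM. Their summed level was 151, 147 and 129 FPKM in the GM libraries and 43.6, 45.0 and 47.6 FPKM in the DM libraries, that is 142 ± 11.6 and 45.4 ± 2.00 FPKM (mean ± SD, n = 3 in each group here and below). In 8 of 8 genes every DM value lay below every GM value, a separation shown by 33% of the 12302 tested genes, those averaging 0.5 FPKM or more. All 8 also passed the limits used for calling a gene lower in DM (an adjusted p under 0.05 and a change over 1.5 fold), as did 6.88% of all tested genes. Both counts restate the contrast by which the genes were picked. In these bulk libraries fewer dividing cells and less of each RNA per cell cannot be told apart.

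**Figure D1:**
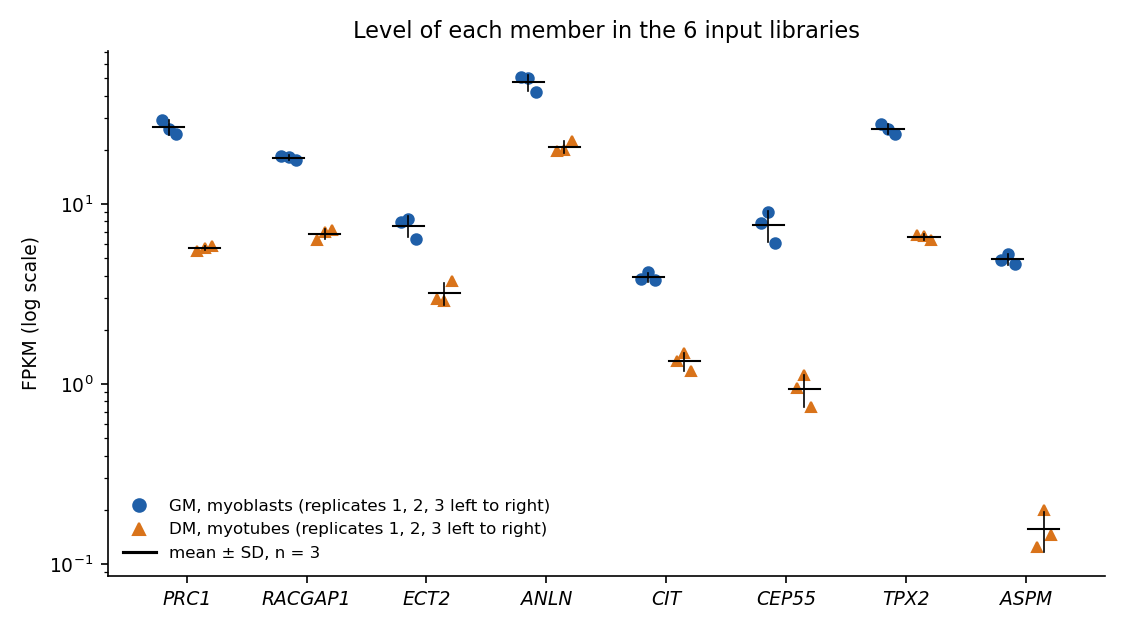
FPKM on a log axis for the 8 genes in the 3 GM (circles) and 3 DM (triangles) input libraries, with the mean ± SD of each group. The groups do not overlap for any of the 8 genes. As a ratio of the group means, the difference is largest for ASPM, from 4.94 to 0.156 FPKM, and smallest for ANLN, from 47.4 to 20.7 FPKM.

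PRC1 (ENSBTAG00000018643) is the microtubule bundling protein that crosslinks the antiparallel filaments of the midzone. It is annotated on the forward strand at chr21:21676334-21699409 of ARS-UCD1.2, the build of all positions here, with 2 transcripts. PRC1 measured 29.4, 26.0 and 24.6 FPKM in GM and 5.51, 5.71 and 5.85 FPKM in DM. The DM libraries lay close together and far below all GM libraries, and GM replicate 1 was the highest. The means were 26.7 ± 2.50 FPKM in GM and 5.69 ± 0.169 FPKM in DM, so that DM held 21.4% of the GM level and, over all pairings of a DM with a GM library, 18.7 to 23.8%. On the log2(FPKM + 1) scale, which understates the change of low genes, the PRC1 difference was -2.04 ± 0.0725 (SE).

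RACGAP1 and ECT2 bind each other at the midzone. RACGAP1 (ENSBTAG00000012784, chr5:29851713-29890966, forward strand, 4 transcripts) is the GTPase-activating subunit of centralspindlin, and ECT2 (ENSBTAG00000023814, chr1:94709117-94769544, reverse strand, 5 transcripts) is the guanine nucleotide exchange factor that RACGAP1 recruits there. RACGAP1 stood at 18.6, 18.1 and 17.5 FPKM in GM and 6.35, 7.03 and 7.13 FPKM in DM. It had the smallest relative spread of the 8 genes in GM (18.1 ± 0.574 FPKM), and its DM mean of 6.84 ± 0.428 FPKM was 37.8% of the GM mean. ECT2 was scarcer, at 7.99, 8.24 and 6.37 FPKM in GM and 2.98, 2.89 and 3.72 FPKM in DM. The libraries closest to each other across the groups were GM replicate 3 and DM replicate 3, in which ECT2 in DM still reached 58.4% of the GM value, against 35.1% for the pairing farthest apart. ECT2 means were 7.53 ± 1.02 and 3.20 ± 0.457 FPKM, or 42.4% in DM. Log2(FPKM + 1) differences were -1.28 ± 0.0612 for RACGAP1 and -1.02 ± 0.110 for ECT2, the smallest of the 8. The ratio of ECT2 to RACGAP1 was 0.416 ± 0.0462 in GM and 0.467 ± 0.0554 in DM, with overlapping ranges. PRC1, in contrast, was present at 1.41 to 1.58 times the RACGAP1 level in GM and at 0.812 to 0.869 times that level in DM, so the order of these midzone partners was the opposite in all 3 libraries of each group.

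ANLN and CIT act at the ring and at the bridge that follows it. ANLN (anillin, ENSBTAG00000009218, chr4:60772368-60825953, reverse strand, 1 transcript) is the scaffold that ties actin, myosin and septins together at the furrow. ANLN was the most abundant of the 8 in every library, with 50.5, 50.1 and 41.7 FPKM in GM and 19.6, 19.9 and 22.5 FPKM in DM. Even in DM its level lay above that of 76.2% of all tested genes, compared with 89.0% in GM. The means of 47.4 ± 4.95 and 20.7 ± 1.58 FPKM put DM at 43.6% of GM, the largest share among the 8, with a log2(FPKM + 1) difference of -1.16 ± 0.0867. CIT (citron kinase, ENSBTAG00000008963, chr17:55569766-55740689, forward strand, 5 transcripts) is a kinase needed to build a stable midbody. CIT measured 3.81, 4.18 and 3.79 FPKM in GM and 1.35, 1.49 and 1.18 FPKM in DM. The values within a group were close, and the DM mean of 1.34 ± 0.152 FPKM was 34.1% of the GM mean of 3.93 ± 0.220 FPKM. The CIT difference was -1.08 ± 0.0775 on the log2(FPKM + 1) scale and -1.56 as a log2 ratio of FPKM without a pseudocount.

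CEP55 (ENSBTAG00000005129, chr26:14823940-14845414, forward strand, 1 transcript) sits in the midbody and recruits the ESCRT machinery that cuts the bridge. Its GM values were 7.88, 9.03 and 6.05 FPKM and its DM values 0.948, 1.12 and 0.741 FPKM. CEP55 had the widest relative spread in GM (a coefficient of variation of 19.6%), yet its highest DM library held 18.4% of its lowest GM library. Its mean was 7.65 ± 1.5 FPKM in GM and 0.935 ± 0.187 FPKM in DM, 12.2% of GM. The difference was -2.15 ± 0.134 on the log2(FPKM + 1) scale and -3.03 as a log2 ratio without a pseudocount.

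TPX2 and ASPM belong to the spindle itself. TPX2 (ENSBTAG00000018775, chr13:61285805-61340092, forward strand, 3 transcripts) activates Aurora A kinase and promotes microtubule nucleation around chromosomes, and ASPM (ENSBTAG00000007860, chr16:76021939-76082066, reverse strand, 1 transcript) binds microtubule minus ends at the spindle poles. TPX2 was 27.7, 26.3 and 24.6 FPKM in GM and 6.76, 6.61 and 6.29 FPKM in DM. Its DM mean of 6.55 ± 0.239 FPKM was 25.0% of the GM mean of 26.2 ± 1.59 FPKM, with a log2(FPKM + 1) difference of -1.85 ± 0.0616. ASPM showed the largest relative difference of the 8, with 4.88, 5.31 and 4.62 FPKM in GM and 0.123, 0.199 and 0.144 FPKM in DM. Each DM library thus held between 2.33 and 4.30% of a GM library, and the mean of 0.156 ± 0.0388 FPKM was 3.15% of 4.94 ± 0.346 FPKM, a 31.7-fold lower level. ASPM passed the limit of 0.5 FPKM only through GM. Its log2(FPKM + 1) difference of -2.36 ± 0.0767 was close to that of CEP55, whereas without the pseudocount it was -5.01.

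The order of the 8 genes differed between the groups. In GM it ran ANLN, PRC1, TPX2, RACGAP1, CEP55, ECT2, ASPM and CIT, where the ranges of PRC1 and TPX2 and those of CEP55 and ECT2 overlapped and all other neighbours were separate. In DM it ran ANLN, RACGAP1, TPX2, PRC1, ECT2, CIT, CEP55 and ASPM, and the ranges of RACGAP1 and TPX2 alone overlapped. PRC1 thus stood above RACGAP1 in GM and below it in DM, and CEP55 and ASPM stood above CIT in GM and below it in DM. As shares of the summed FPKM of the 8 genes, ANLN took 33.3 ± 0.871% in GM and 45.5 ± 1.58% in DM, and RACGAP1 12.7 ± 0.690% and 15.1 ± 0.548%. The share of PRC1 was 18.7 ± 0.964% in GM and 12.5 ± 0.216% in DM, that of CEP55 5.35 ± 0.731% and 2.07 ± 0.469%, and that of ASPM 3.47 ± 0.207% and 0.343 ± 0.0864%. CIT, at 2.77 ± 0.211% and 2.96 ± 0.425%, was the gene whose share overlapped between the groups. Within the spindle pair, TPX2 was 5.32 ± 0.368 times as abundant as ASPM in GM and 43.9 ± 10.8 times in DM. Between ring and midbody, CEP55 reached 0.160 ± 0.0180 of the ANLN level in GM and 0.0457 ± 0.0117 in DM. The pairs for these ratios were chosen after the values were seen.

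**Figure D2:**
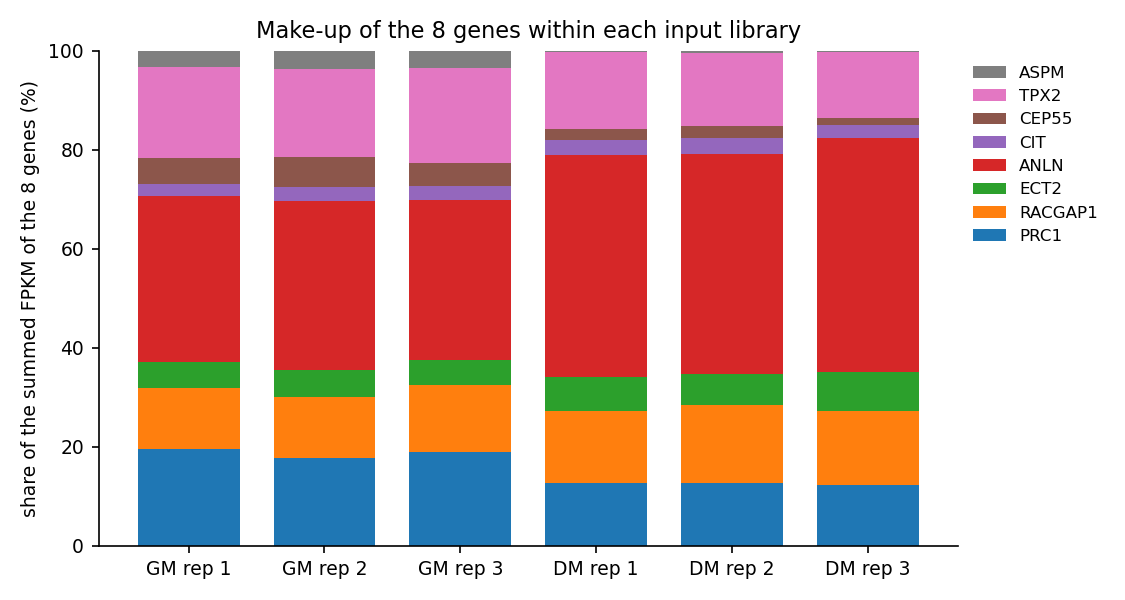
Stacked bars give, for each of the 6 input libraries, the share (%) of the summed FPKM of the 8 genes that each gene holds. ANLN takes 32.3 to 34.0% in the GM libraries and 44.3 to 47.3% in the DM libraries, while the band of ASPM spans 3.24 to 3.61% in GM and 0.283 to 0.442% in DM.

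Some of the spread within a group was shared. GM replicate 3 was the lowest of the GM libraries in 8 of 8 genes, whereas it was the lowest in 44.5% of all tested genes in 45.0% of the 838 other genes called lower in DM and in 14 of 21 other midzone and chromosomal passenger complex genes (66.7%). GM replicates 1 and 2 were each the highest in 4 of the 8. The DM libraries showed no such common order, since DM replicate 1 was the lowest in 4 genes, DM replicate 3 in 3 and DM replicate 2 in 1. With GM replicate 3 left out, the median log2(FPKM + 1) difference of the 8 genes was -1.60, compared with -1.57 with all libraries and -0.05 over all tested genes.

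Across the 6 input libraries, each of the 8 genes followed their mean log2(FPKM + 1) profile with a Pearson r of 0.979 (ECT2) to 0.999 (ASPM). A high r was built in, since each gene is part of that mean and all 8 were picked by the same difference. The 5 other genes most like that profile were CDCA2, ACSS3, KNL1, GOT2 and PBK. CDCA2, a chromatin-bound phosphatase regulator, had a mean of 8.27 FPKM in GM and 0.831 FPKM in DM (r = 0.9998). KNL1, the kinetochore scaffold, had 4.12 and 0.392 FPKM (r = 0.9995), and the mitotic kinase PBK had 16.1 and 4.26 FPKM (r = 0.9992). The metabolic genes ACSS3 (4.80 and 1.92 FPKM) and GOT2 (109 and 78.5 FPKM) were as close, with r of 0.9997 and 0.9993, although GOT2 differed far less between the groups. In all, 369 further genes (3%) reached an r of at least 0.99. The points are 6 libraries in 2 groups, and a likeness of this kind follows the difference between the groups.

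The annotation deposited with the expression table gave the midbody as location for 6 of the 8 genes (PRC1, RACGAP1, ECT2, ANLN, CEP55 and ASPM), out of 123 genes with that term. Mitotic cytokinesis was given for 5 (RACGAP1, ECT2, ANLN, CIT and CEP55), out of 39 genes. The term centralspindlin complex, held by 3 genes, named RACGAP1 and ECT2.

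Other genes of the same processes, in 3 lists that hold none of the 8, were set beside them. KIF4A, CHMP1B, HAUS7 and WDR62 were on these lists but had no entry under these symbols. Of 21 tested midzone and chromosomal passenger complex genes, 12 were lower in DM, 0 were higher and 9 were not called, with a median log2(FPKM + 1) difference of -0.99. Over all tested genes 6.88% were called lower and 4.89% higher, and 42.8% had an adjusted p under 0.05 at any fold, as had 15 of these 21. On the TPM scale the split of 846 lower and 602 higher genes became 769 lower and 960 higher, and the midzone count remained at 12 lower. With median-ratio size factors it was 704 lower and 678 higher, again with 12 midzone genes lower. KIF20A, the midzone kinesin, fell from 17.6 ± 1.14 to 0.683 ± 0.247 FPKM (log2(FPKM + 1) difference -3.47, limma with Benjamini-Hochberg adjustment, adjusted p = 2.8e-07). Survivin (BIRC5), of the passenger complex, fell from 27.9 ± 0.421 to 2.56 ± 0.345 FPKM (-3.03, limma adjusted p = 2.05e-07). SHCBP1, which binds centralspindlin, fell from 7.98 ± 0.601 to 0.575 ± 0.193 FPKM (-2.52, limma adjusted p = 9.54e-07). KIF23, the motor subunit that joins RACGAP1 in centralspindlin and was named after its value was seen, fell from 9.87 ± 0.449 to 2.19 ± 0.189 FPKM (-1.77, limma adjusted p = 7.88e-07). These p-values measure the spread between the 3 cultures of a group, which may be technical.

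None of 35 tested abscission and ESCRT genes was called, 8 of them having an adjusted p under 0.05 in limma (3 lower and 5 higher) and 17 an unadjusted p under 0.05, which 6241 of all 12302 tested genes had. Their differences ranged from -0.38 to 0.45 around a median of -0.01. PDCD6IP (ALIX), which CEP55 recruits and which was named after its value was seen, had 81.0 ± 4.29 FPKM in GM and 92 ± 1.58 FPKM in DM. Of 45 tested spindle pole and spindle assembly genes, 14 were lower in DM, 0 higher and 31 not called, with a median of -0.35, and 31 had an adjusted p under 0.05 in limma (29 lower and 2 higher). SPAG5, a spindle protein of kinetochores and poles, fell from 8.14 ± 0.174 to 0.329 ± 0.104 FPKM (-2.78, limma adjusted p = 2.09e-07). DLGAP5, a spindle assembly factor, fell from 8.29 ± 1.18 to 0.427 ± 0.144 FPKM (-2.70, limma adjusted p = 1.14e-06). KIF2C, a microtubule depolymerase, fell from 7.74 ± 0.377 to 0.489 ± 0.122 FPKM (-2.56, limma adjusted p = 3.29e-07). SPAG5, DLGAP5 and KIF2C passed the limit of 0.5 FPKM for testing only through GM. The same holds for KIF15 among the spindle pole calls and for KIF14 and KIF18A among the midzone calls.

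**Figure D3:**
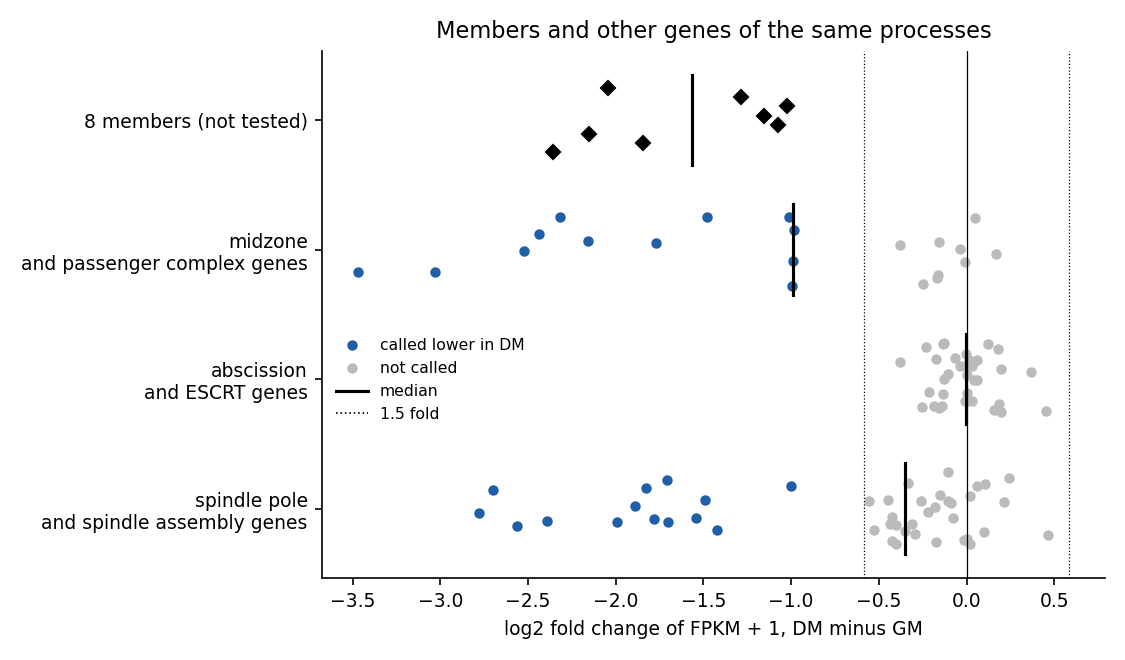
Each point is a gene, placed by its log2(FPKM + 1) difference of DM minus GM. The top row holds the 8 genes (diamonds, -2.36 to -1.02, not tested), the other rows hold 21, 35 and 45 tested genes of 3 lists, bars are medians, and dotted lines mark 1.5 fold. The abscission and ESCRT genes stay between -0.38 and 0.45, while the midzone list has its median at -0.99.

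The m6A data are 1 list of peaks for GM and 1 for DM, each called by the authors on the pooled IP and input libraries of a group. A peak's fold enrichment is the ratio of IP to input within it, given without replicates, so differences between the lists carry no error. The GM list gave 14 peaks to 6 of the 8 genes, against 70.9% of all tested genes with a peak, and the DM list gave 16 peaks to all 8, against 78.7%. ANLN and ECT2 had a peak in the DM list and none in the GM list, as had 10.1% of tested genes. The median fold enrichment of these peaks was 2.29 in GM and 3.65 in DM, where the peaks of all tested genes had medians of 2.96 and 3.0. Among the high DM values were 4 ASPM peaks (5.32 to 8.52) at a DM level of 0.156 FPKM. Another was the ECT2 peak (5.32), with a false discovery rate of 0.196. The difference between the medians was not tested. A false discovery rate under 0.05 was met by 13 of the 14 GM peaks (92.9%, against 94.5% for all tested genes) and by 11 of the 16 DM peaks (68.8%, against 91.9%). No DM peak listed under PRC1 or ECT2 met this rate, so by gene name the DM list covers all 8 genes only without it. A further DM peak in PRC1 exons, listed under another gene name and described below, did meet it (2.51e-21). Peaks were annotated to an exon outside the UTRs in 9 of 14 cases in GM and 11 of 16 in DM (64.3% and 68.8%), shares that were 39.0% and 33.1% for the peaks of all tested genes. Of the rest, 2 lay in a 3′ UTR and 3 in a 5′ UTR in each list. The exon cases of GM were all peaks of ASPM (6) and CIT (3), which also gave 4 and 3 of those in DM. The GM share thus rests on ASPM and CIT alone.

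**Figure D4:**
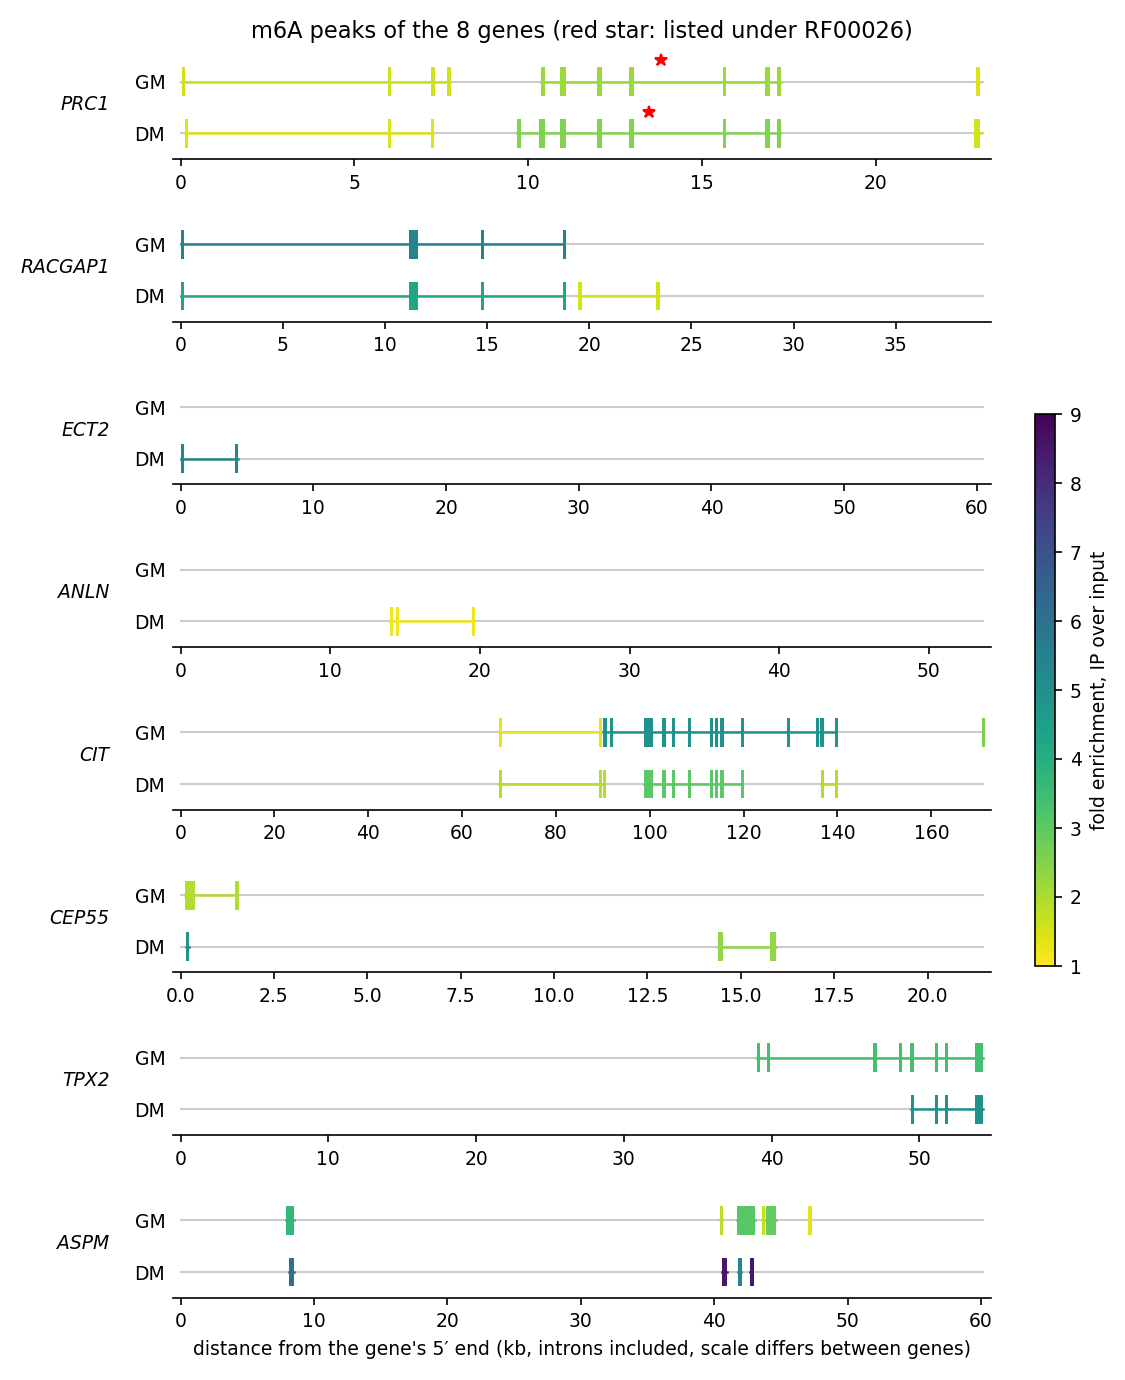
Exon blocks of the m6A peaks of the 8 genes, by distance (kb) from each gene's 5′ end with introns included, for the GM list (upper line) and the DM list (lower line); color gives fold enrichment of IP over input. ECT2 and ANLN have no GM peak, TPX2 peaks end at the 3′ end of the gene, and the red stars mark the PRC1 peak that is listed under another gene name.

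PRC1 had a weak peak at each end. The first, at chr21:21676364-21684099 in the GM list, covered 329 exonic bases with a fold enrichment of 1.57, and its DM counterpart had 1.41 over 91 bases and a false discovery rate of 0.0575. The peak in the 3′ UTR, at chr21:21699230-21699320 in GM, had 1.43 in GM and 1.54 in DM, with a false discovery rate of 0.0708 in DM. A larger peak between them, annotated to exon 5 of 14 of PRC1 in GM, was listed under RF00026, a small RNA gene of 107 bases at chr21:21690244-21690350, and so is not among the 14 and 16. RF00026 itself had at most 0.312 FPKM in any library, and none of the peak's exon blocks overlapped it. In GM this PRC1 peak spanned chr21:21686704-21693611 with 896 exonic bases in 7 blocks and a fold enrichment of 2.21, and in DM it had 955 bases in 8 blocks and 2.54, or 1.15 times the GM value. Its false discovery rate was 1e-102 in GM and 2.51e-21 in DM.

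RACGAP1 carried the same peak in both lists. It began at the 5′ end of the gene, at chr5:29851713-29870494, had identical blocks of 690 exonic bases, and its fold enrichment was 5.44 in GM and 4.26 in DM. The DM list added a peak of 180 bases with 1.52 just downstream, from exon 2 of 17. The ECT2 peak of the DM list also lay in the 5′ UTR, at chr1:94765212-94769544, with a fold enrichment of 5.32 over 481 bases. Its unadjusted p-value of 0.045 was near the 0.05 limit of the list, and its false discovery rate was 0.196. Of 1354 genes with a GM level near that of ECT2, 75.8% had a GM peak.

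ANLN, the most abundant of the 8, had the lowest fold enrichment of their peaks. Its DM peak at chr4:60806402-60811958, from exon 6 of 21, had a fold enrichment of 1.18, and 1.11% of all DM peaks were lower, although its false discovery rate of 0.000107 was below that of the ECT2 peak. Of 500 genes with a GM level near that of ANLN, 66.2% had a GM peak. CIT, the least abundant in GM, had 3 peaks in each list. The main one in GM, at chr17:55659871-55709317, held 2188 exonic bases in 16 blocks from exon 11 of 46 with a fold enrichment of 4.96. In DM a peak of 1259 bases in 10 blocks with 3.05 covered 57.5% of those bases, and one of 121 bases with 1.94 shared 91 of them. Its first peak, from exon 9, had 1.34 over 61 bases in GM and 1.92 over 150 bases in DM. A CIT peak in the last annotated exon, with 2.62 over 151 bases in GM, had no counterpart in the DM list.

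CEP55 had a 5′ UTR peak in both lists, with a fold enrichment of 1.96 over 299 bases in GM (chr26:14824059-14825450) and 4.97 over 90 bases in DM. The log2 ratio of DM to GM was 1.34, and 97.1% of all 10239 pairs of 1 GM and 1 DM peak had a lower ratio. The DM peak covered 30.1% of the GM peak's bases and had a false discovery rate of 0.0145, at a DM level of CEP55 of 0.935 FPKM. The part of the low input signal in this ratio was not tested. A DM peak in exon 5 of 9 of CEP55 with 2.34 had no counterpart in GM. In TPX2 the peak lay at the 3′ end in both lists. It ran over 1462 exonic bases at chr13:61324824-61340092 in GM with 3.38, and the DM peak, 896 bases that all lay within it, had 4.91.

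ASPM had the most peaks, 6 in GM and 4 in DM. The GM peaks covered 2971 exonic bases with fold enrichments of 1.33 to 3.67, and the 1319-base peak at chr16:76039019-76040337 in exon 19 of 29 was the longest. The DM peaks covered 1052 bases with 5.32 to 8.52, at a DM level of ASPM of 0.156 FPKM. Those with 8.52, 2 peaks in exon 19, had a false discovery rate of 0.0741, and the others had 0.0339 (5.32) and 0.00288 (6.03). The part of the low input signal in these ASPM ratios was not tested. The peak near the 5′ end, at chr16:76073586-76074187 in GM, was matched 1 to 1, with 3.67 in GM and 6.03 in DM.

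Of 6 such 1-to-1 pairs, the fold enrichment was higher in DM in 4 (CEP55, ASPM, TPX2 and the 3′ UTR peak of PRC1) and lower in 2 (RACGAP1 and the 5′ peak of PRC1). Their median log2 ratio was 0.32, beside 0.07 over all 10239 pairs. The fold enrichment was higher in DM in 56.5% of all pairs and in 66.9% of the pairs of the other genes called lower, whose median log2 ratio was 0.19. With only peaks at a false discovery rate under 0.001, the pairs of RACGAP1 and TPX2 were left, the main CIT peaks then matched 1 to 1 with a log2 ratio of -0.70, and the median of these 3 was -0.35.

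**Figure D5:**
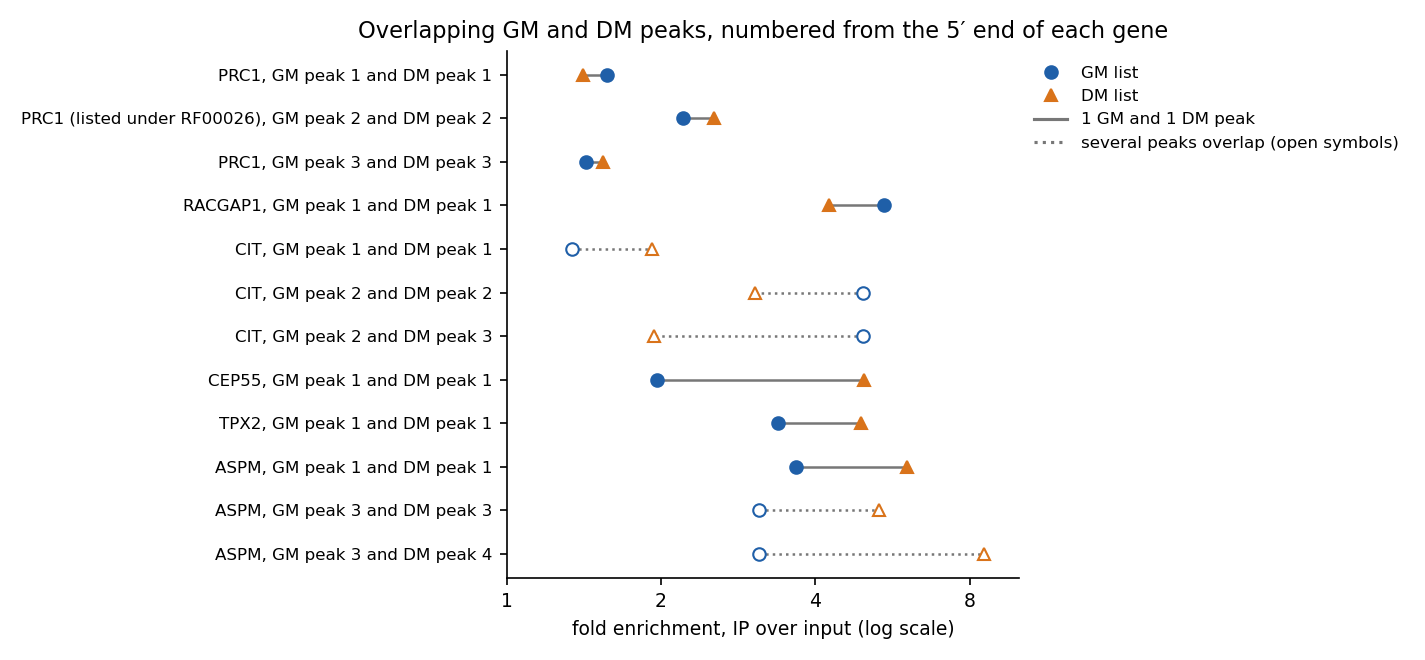
Fold enrichment (log axis) of overlapping GM (circles) and DM (triangles) peaks, with filled symbols for 1-to-1 pairs and open symbols where several peaks overlap; the CIT peaks that share 1 base are left out. RACGAP1 is at 5.44 in GM and 4.26 in DM, and CEP55 at 1.96 in GM and 4.97 in DM.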

How the data were processed

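Libraries were strand-specific. Per the study's methods, reads were trimmed and aligned with HISAT2 to ARS-UCD1.2, and the authors deposited StringTie FPKM for the 6 inputs. The table holds no counts, the study's read numbers per library were not used here, and precision rests on 3 libraries a group. The deposited peak lists come from exomePeak and ChIPseeker. Their fold enrichment is the authors' ratio of IP to input, the deposited p-value is unadjusted, and the deposited log10 false discovery rate, treated as a score, was converted to a rate.

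FPKM were analysed with limma 3.58.1 (R 4.3.3) on log2(FPKM + 1) with a variance trend, for the 12302 genes averaging 0.5 FPKM or more. Called genes had a Benjamini-Hochberg adjusted p under 0.05 over all tested genes and a change over 1.5 fold. The fit was tested on simulated data in which 200 of 12302 genes changed by 2 fold or more. It found 95.5% of these and called 4 unchanged genes. Smaller changes were not simulated. Peaks were paired by overlap of at least 1 exonic base on the same strand (Python 3.11.15, pandas 2.3.3). Genes and lists were chosen with earlier results of these data known. Named were the 8 genes, the 3 called genes of each list with the largest change and the largest the other way, and the 5 most alike in profile. Genes with a level near that of another were within a factor of 1.2 of its mean. Alternatives covered the pseudocount, filter, TPM, size factors, a replicate block, thresholds, each library left out and stricter peak sets. Sequences were not used here, and the result of 1 further gene list is not reported here.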

Additional observations from a re-analysis of the deposited data

How the results depend on the processing

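All 8 genes were lower in DM with a pseudocount of 1, 0.1 or none, on the TPM scale and with median-ratio size factors. The median log2 difference of -1.57 was -1.73 with a pseudocount of 0.1 and -1.78 with none (chosen after seeing the data, as was the count by exon annotation). ASPM moved most, from -2.36 to -4.31 and -5.01 (-3.18 on TPM), followed by CEP55 (-2.15 to -2.90 and -3.03, TPM -2.48) and CIT (-1.08 to -1.49 and -1.56, TPM -1.21). On TPM the median of all genes was 0.06 in place of -0.05, and the 1448 calls (846 lower, 602 higher) became 1729 (769 lower, 960 higher). The pseudocount of 1 was kept on the larger TPM values, so it weighed less there. Median-ratio size factors gave 1382 calls (704 lower, 678 higher). Over 2 fold, 504 genes were called (272 lower, 232 higher), among them 9 midzone genes in place of 12, 0 abscission genes and 14 spindle pole genes. On TPM 1 abscission gene, EXOC6, and 1 spindle pole gene, TACC2, were called higher (0.62 and 0.69). With a pseudocount of 0.1, 17 spindle pole genes were lower and 1 higher. Same-numbered libraries did not pair (r of deviations -0.0792, -0.123 and -0.208, and no library was closest to its own number). A replicate block gave 1459 calls, list counts of 12, 0 and 14 and a median of -1.57. With each library left out in turn there were 1459 to 1503 calls, list counts of 12, 0 and 14, and medians of -1.60 to -1.53. With fold enrichment limited to 2 or more, the genes kept 7 GM and 10 DM peaks, and at a false discovery rate under 0.001 5 DM peaks and 3 pairs. The median log2 ratio of paired peaks was 0.72 at a rate under 0.05, 0.09 at a fold of at least 2, 0.11 with 50% overlap, 0.25 centred, 0.20 with the peaks listed under RF00026 and -0.35, reversed, at a rate under 0.001, where the pair of CIT enters and those of CEP55, ASPM and PRC1 drop out. The peaks have no replicates, and the lists give no read numbers.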

Other observations

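The PRC1 peak listed under RF00026 is not an isolated case. Among peaks annotated to an exon, 285 of 8147 in the GM list (3.5%) and 296 of 7587 in the DM list (3.9%) were listed under a gene other than that of the exon, and 49 and 63 of these carried an RF name of a small RNA family. A search of either list by gene name passes over such peaks. With the exon annotation counted too, the 8 genes had 15 GM and 17 DM peaks.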
